A study of Rattus norvegicus with 12 samples.

Results

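The genes described here encode transcription factors and a cofactor that set the identity of cells in the mammary epithelium, and were chosen by name as mammary lineage transcription factors. Of the 9 genes listed, 8 have a count in the deposited table of 16511 genes. They are Gata3 (Entrez 85471), Foxa1 (25098), Elf5 (366142), Ehf (295965), Tfap2a (306862), Tfap2c (362280), Tbx3 (353305) and Lmo4 (362051), while Sox9 was not analysed here. Messenger RNA of whole, snap-frozen mammary glands of Sprague-Dawley (SD) rats was sequenced at PND21, with 1 gland from each litter. The dams of the 6 HFB glands received a high fat butter diet and those of the 6 CTL glands the control AIN diet, and the young themselves were kept on AIN. The deposited text names more than a single end for the exposure of the dams. The paper on this series states that the diets were fed through mating and gestation and replaced by the control diet after birth. Which end applies to these glands was not settled further. The labels do not name bisphenol A, and the tissue is the whole gland, with fat pad, vessels, nerve, muscle and lymphoid tissue, and not microdissected epithelium. For this series the paper describes instead microdissected epithelium, from young of dams on the butterfat diet with or without bisphenol A. That account differs from the deposited description in tissue and treatment, and the genes it reports are not compared with the results below.

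The mammary epithelium has an inner luminal layer, in which hormone-sensing cells and milk-forming alveolar precursors arise, and an outer basal layer of contractile cells. Gata3, a zinc finger factor, and Foxa1, a forkhead factor that opens chromatin for the estrogen receptor, are known for hormone-sensing luminal cells, and Elf5, an ETS factor, drives the alveolar fate that leads to milk secretion. Ehf is an epithelial ETS factor, Tfap2a and Tfap2c are AP-2 factors of epithelium, Tbx3 is a T-box factor needed for the mammary bud, and Lmo4 is a LIM-only protein that joins transcription factors into complexes.

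Libraries are named by diet and library number, HFB 1 to 6 and CTL 7 to 11 and 14, and the diets share no number. Total counts ran from 2320267 to 2760871 with HFB and from 2403464 to 2944680 with CTL, and the means of the diets differed by 61429 counts (exact permutation test, two-sided, p = 0.561), and by 28133 without CTL 9 to 136376 without CTL 7. Levels are given as CPM, counts scaled to the library total with TMM factors. A count of 3, taken as the smallest detectable level, was worth between 0.945 and 1.30 CPM in a library, a limit that covers counting error only. CPM is not divided by transcript length, so levels are compared within a gene and not between genes.

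HFB 6 and CTL 14 stood apart from the other glands. The T cell score, the mean log2 CPM of 13 T cell genes, was 5.76 in HFB 6 and 6.07 in CTL 14, and between 0.58 and 5.04 in the other glands, the highest of which was HFB 1. Summed over the 13 genes, the level was 1211 CPM in HFB 6 and 1248 CPM in CTL 14, against 23.8 CPM in CTL 8, the lowest, and Lck, the highest of them by the mean over all libraries, had 193, 216 and 5.66 CPM in these glands. The B cell score was 5.05 in HFB 6 and 5.67 in CTL 14, and at most 3.78 elsewhere, with 433 and 505 CPM summed over the 7 B cell genes with a count. The adipocyte score was 9.86 in HFB 6 and 9.72 in CTL 14 and at least 11.04 in the others, and the 10 adipocyte genes summed to 23960 and 18426 CPM there, with Fabp4 the most abundant. The fibroblast score was 9.86 and 9.62 in the pair and at least 10.36 in the others, with 24520 and 23414 CPM summed over 8 genes. The endothelium score was 6.23 and 6.65 in the pair and at most 5.73 in the others, and its 7 genes summed to 937 and 891 CPM there and to at most 377 CPM elsewhere. Results are therefore given with and without this pair of glands.

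The amount of epithelial RNA also differed from gland to gland. An epithelial score was formed as the mean log2 CPM of 19 of 20 listed epithelial genes, none of which is a factor gene. Keratins, junction and surface proteins are among them, as are Esrp1, Esrp2, Rab25 and Ap1m2. Cldn3 was at 0 counts in every library, Krt7 was not analysed here, and Krt8, the highest by the mean over all libraries, had 41.7 to 215 CPM. The score was lowest in HFB 1 (2.79) and HFB 2 (3.14), where the genes summed to 219 and 287 CPM, and highest in CTL 14 (4.72), where they summed to 1088 CPM. It averaged 3.74 ± 0.77 (SD, n = 6) with HFB and 4.17 ± 0.45 (SD, n = 6) with CTL, a difference within the spread between glands (two-sided exact permutation test, p = 0.262, adjusted p = 0.762 over 13 marker scores). The difference of -0.43 ran from -0.60 without HFB 5 to -0.24 without HFB 1. In whole glands a smaller number of epithelial cells and less RNA per cell cannot be told apart, and this holds for each factor gene below.

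Gata3 was the factor gene with the smallest p between the diets. It had 1.65 CPM in the lowest HFB gland, a median of 3.51 and 7.10 CPM in the highest, and 3.86, 7.69 and 10.1 CPM at the same places in the CTL group, from 4 to 32 counts a library. All 6 HFB glands were under the CTL median and 3 of them under every CTL gland, HFB 4 was the highest of its group, and the groups overlapped. The log2 fold change of HFB over CTL was -0.90 (standard error 0.36), with an unadjusted p of 0.0256 and an adjusted p of 0.999 in edgeR's quasi-likelihood test, so the difference did not pass. Without HFB 6 and CTL 14 it was -0.83 (standard error 0.39, unadjusted p 0.0523, adjusted p 0.916). With the epithelial score in the model it was -0.64 (unadjusted p 0.0879). The score itself was lower in the HFB group, as given above, and its part in the Gata3 difference was not tested further.

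Foxa1, the partner of Gata3 in hormone-sensing cells, gave no such order. Its levels were 26.9 CPM in the lowest HFB gland, 34.6 at the median and 56.2 CPM in the highest, and 24.6, 31.7 and 45.7 CPM with CTL. HFB 6 was the highest of all glands, CTL 14 and CTL 8 were the highest of the CTL group, and the groups overlapped over most of their range. The log2 fold change was 0.11 (standard error 0.22, adjusted p 0.999 in edgeR), and it was -0.04 without HFB 6.

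The ETS factors covered wide ranges inside each diet. Elf5 was at 2.89 CPM in HFB 1, 10.3 CPM at the HFB median and 20.9 CPM in HFB 6, and at 8.49, 16.2 and 20.1 CPM in the lowest, middle and highest of the CTL group. HFB 1, HFB 2 and HFB 3 lay under every CTL gland while HFB 6 lay above all of them. The log2 fold change was -0.34 (standard error 0.42, adjusted p 0.999 in edgeR), from -0.59 without HFB 6 to -0.14 without HFB 1, and -0.84 with limma-voom. With the epithelial score in the model it was 0.00974, and 0.0269 with the T cell score as well. Ehf was close to the limit of detection, with 1 to 13 counts with HFB and 4 to 26 counts with CTL, and fewer than 3 counts in 2 libraries, HFB 1 and HFB 6. In CPM it ran from 0.41 over a median of 1.82 to 4.61 with HFB and from 1.38 over 4.18 to 10.7 with CTL, where CTL 11 was the highest. Of its HFB glands, 5 of 6 were under the CTL median, and the groups overlapped. Ehf did not pass the filter on low counts, and its log2 fold change of -1.11 (standard error 0.59, adjusted p 0.998) comes from edgeR run with no filter. Leaving out 1 library moved the Ehf value to between -1.47 and -0.74.

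Of the AP-2 factors, Tfap2c had the widest range. It was at 1.24 CPM in HFB 1 and 19.0 CPM in HFB 6, with an HFB median of 5.56 CPM, and at 2.83, 7.94 and 17.3 CPM in the lowest, middle and highest of the CTL group. The low glands were HFB 1, HFB 2 and HFB 3, with 3, 6 and 4 counts. The high ones were HFB 6 and CTL 14, with 49 and 50 counts. The 3 counts in HFB 1 are the smallest level taken as detectable. Its log2 fold change was -0.14 (standard error 0.63, adjusted p 0.999 in edgeR), from -0.68 without HFB 6 to 0.23 without CTL 14, -1.02 with limma-voom, and 0.35 with the epithelial score in the model. Tfap2a had 3 to 13 counts with HFB and 6 to 27 counts with CTL, which is 1.24 to 5.08 CPM with a median of 3.04 and 2.57 to 8.50 CPM with a median of 4.46. CTL 7 was the highest, 5 of 6 HFB glands were under the CTL median, and the groups overlapped. Read from the fit with no filter, its log2 fold change was -0.73 (standard error 0.39, adjusted p 0.998 in edgeR). Across the alternatives other than leaving out 1 library it ran from -0.96 to -0.42.

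Tbx3 and Lmo4 lay at opposite ends of the precision that the depth allows. Tbx3 had between 1 and 22 counts with HFB and between 6 and 14 with CTL, and it was under 3 counts in HFB 2 and HFB 6. HFB 4, at 7.81 CPM, stood above the other HFB glands, which lay between 0.39 and 2.73 CPM, and the CTL glands lay between 2.42 and 4.54 CPM. In the fit with no filter the log2 fold change was -0.34 (standard error 0.53, adjusted p 0.998 in edgeR), and it ran from -1.03 without HFB 4 to -0.12 without HFB 6. Lmo4 had 210 to 469 counts in every library, with 81.4, 136 and 154 CPM in the lowest, middle and highest HFB gland and 76.1, 129 and 158 CPM with CTL. The lowest gland of each diet was HFB 6 and CTL 14, the other 10 lay between 118 and 158 CPM, and the diets overlapped over their whole range. The log2 fold change was 0.04 (standard error 0.19, adjusted p 0.999 in edgeR).

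**Figure D1:**
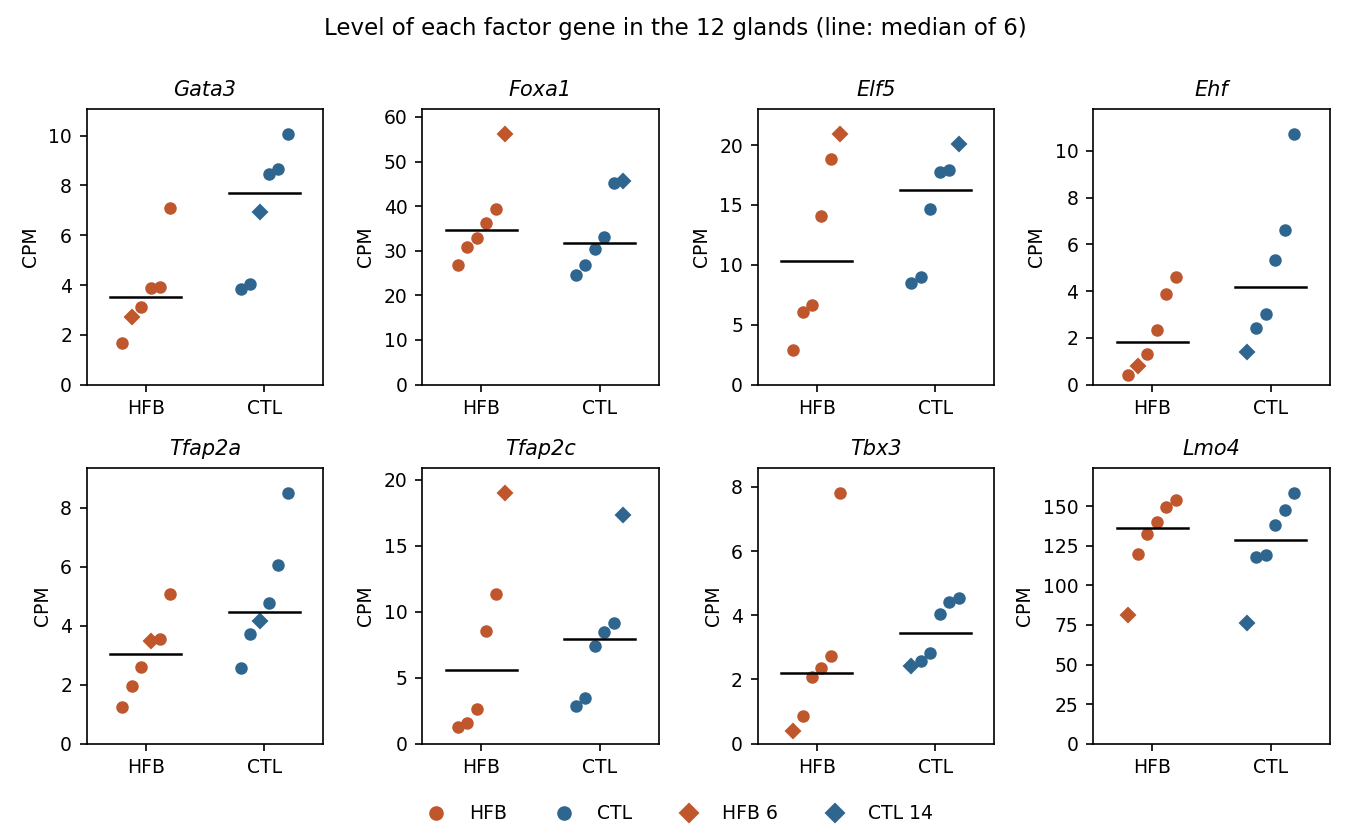
CPM of each factor gene (y axis, linear from 0) in the 6 HFB and 6 CTL glands (x axis), 1 point per gland, with HFB 6 and CTL 14 as diamonds and a line at the median of each group. Gata3 in the 6 HFB glands lies under the CTL median of 7.69 CPM, Lmo4 is lowest in HFB 6 and CTL 14, and the diets overlap in all 8 panels.

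None of the 8 genes was called between the diets, and none had groups that did not overlap. The background was the same at the adjusted threshold, since edgeR called 0 of 9382 genes (0.0%), as did DESeq2 and limma-voom. At an unadjusted p under 0.05 edgeR counted 218 genes (2.32%), DESeq2 271 and limma-voom 604, and Gata3 was among the genes counted by edgeR. Diet groups that did not overlap were seen for 13 of the 9382 genes (0.139%). The unadjusted count was 427 without HFB 6 and CTL 14, and among fits without 1 library it moved by over 1.5 times without HFB 1 (362), HFB 4 (414), HFB 5 (133), CTL 7 (135), CTL 10 (125), CTL 11 (127) and CTL 14 (582). The unadjusted p of Gata3 ran from 0.00480 without HFB 4 to 0.0656 without CTL 7. It was also above 0.05 without HFB 1 (0.0522), CTL 10 (0.0508) or CTL 11 (0.0517).

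Elf5 and Tfap2c rose with the epithelial score among glands of the same diet. Per unit of score, the log2 level of Elf5 rose by 1.25 (standard error 0.20, adjusted p 0.00668 in edgeR's test with diet in the model). That of Tfap2c rose by 2.02 (standard error 0.24, adjusted p 0.00126 in the same test). A unit of score is 1 unit of mean log2 CPM over the score genes, with a prior count of 2. The 16 score genes that passed the filter had a median slope of 1.22. Elf5 was at 2.89 CPM in HFB 1, the gland with the lowest score, and at 20.1 CPM in CTL 14, the gland with the highest, and Tfap2c at 1.24 and 17.3 CPM. Higher levels of both genes were thus in the glands with more RNA of the genes in the score. The low end rests on few counts, in HFB 1 on 7 for Elf5 and 3 for Tfap2c. The test called 107 of 9366 genes upward (1.14%) and 12 downward (0.128%), the score genes left out, and 2 of the 5 factor genes in this test were among the upward calls.

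Neither call rested on HFB 6 and CTL 14. Without them the slope of Elf5 was 1.21 (standard error 0.23, adjusted p 0.0262 in edgeR) and that of Tfap2c 1.75 (standard error 0.25, adjusted p 0.00450). In fits that each left out 1 library the adjusted p lay between 0.00564 and 0.0409 for Elf5 and between 0.00214 and 0.0116 for Tfap2c. HFB 1 and HFB 2 were the glands farthest from the median score, and without both Elf5 had a slope of 1.06 and no longer passed (adjusted p 0.194), while Tfap2c had 2.19 (adjusted p 0.0429). Within the diets the slope of Elf5 was 1.33 in the HFB glands and 1.07 in the CTL glands, and that of Tfap2c 2.04 and 1.995, none of them past the threshold over 6 glands (adjusted p 0.0916 to 0.564 in edgeR). The test of a difference in slope between the diets gave 0.27 for Elf5 and 0.06 for Tfap2c and called 0 of 9366 genes in edgeR, with 382 at an unadjusted p under 0.05.

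The other factor genes did not pass this test. Gata3 had a slope of 0.61 (standard error 0.30, adjusted p 0.198) over all glands and 0.88 (standard error 0.30, adjusted p 0.231) without HFB 6 and CTL 14. In CTL 14 it stood at 6.92 CPM and in HFB 6 at 2.71 CPM, beside 10.1 CPM in CTL 7, whose score of 4.49 was close to that of HFB 6 (4.47). For Foxa1 the slope was 0.19 (standard error 0.18, adjusted p 0.478) and turned to -0.07 without the pair, and for Lmo4 it was -0.27 (standard error 0.16, adjusted p 0.261) and -0.05 without it. In the fits with no filter Tfap2a had 0.77 (standard error 0.29, adjusted p 0.157), Ehf 0.36 (standard error 0.58, adjusted p 0.707) and Tbx3 0.38 (standard error 0.50, adjusted p 0.647), and without the pair they had 0.97, 0.92 and 0.83 (adjusted p 0.211 to 0.445 in edgeR).

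**Figure D2:**
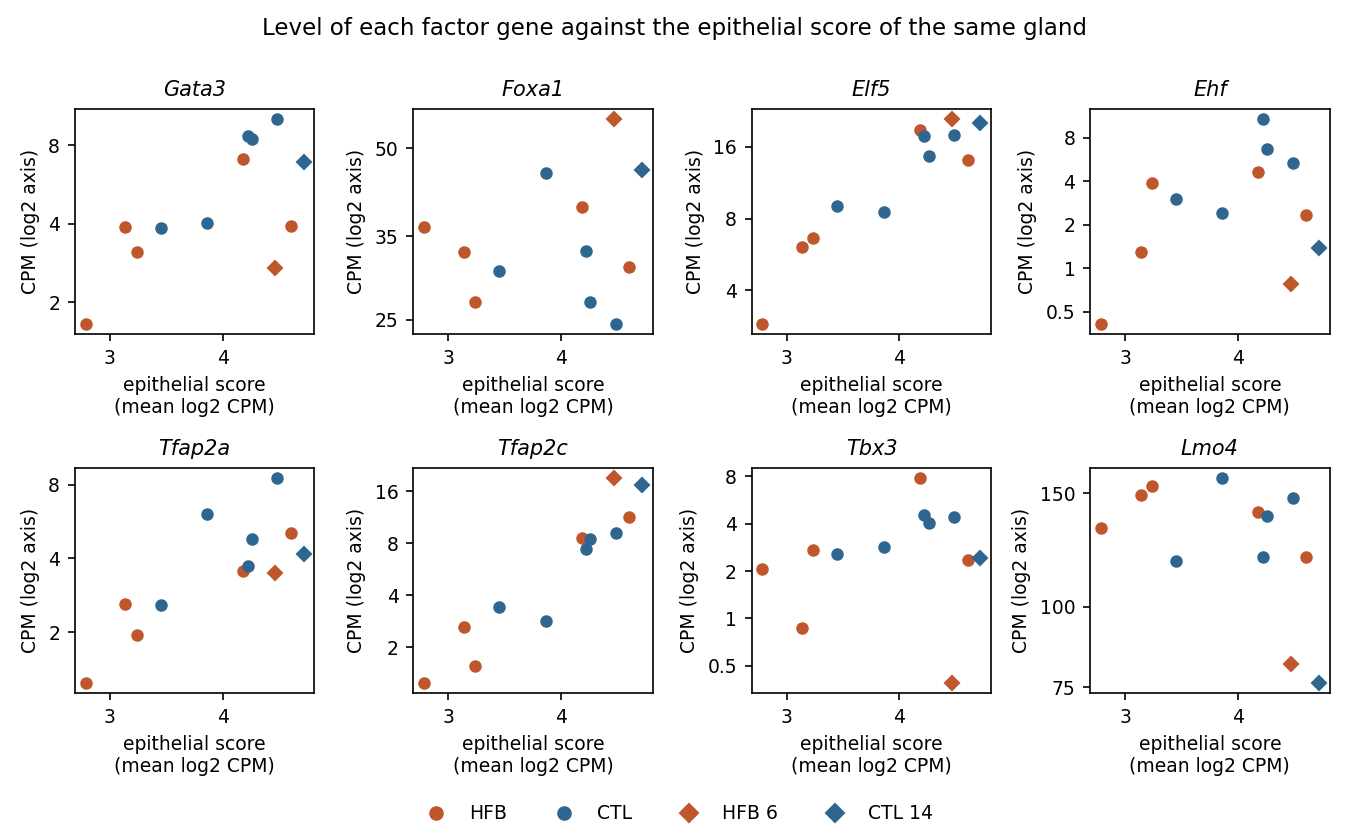
CPM of each factor gene (y axis, log2 scale) against the epithelial score of the same gland (x axis, mean log2 CPM of the epithelium genes), 1 point per gland, coloured by diet, with HFB 6 and CTL 14 as diamonds. Elf5 and Tfap2c climb from HFB 1 at a score of 2.79 to CTL 14 at 4.72, and Lmo4 shows its lowest values, 81.4 and 76.1 CPM, in HFB 6 and CTL 14.

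How many genes across the table passed the score test changed with the glands used. It was 61 without HFB 6 and CTL 14 and 13 without HFB 1 and HFB 2. It was 1393 without HFB 4, 70 without HFB 1, 48 without HFB 2, 46 without HFB 3, 46 without HFB 6, 67 without CTL 7, 63 without CTL 8, 72 without CTL 11 and 68 without CTL 14, against 119 with all. In the fits without 1 library the slope of Elf5 lay between 1.102 and 1.40 and that of Tfap2c between 1.85 and 2.17.

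Gata3 is also known as a factor of T cells, and the glands differed in their T cell genes. With diet and the epithelial score in the model, the log2 level of Gata3 changed by -0.13 per unit of T cell score (standard error 0.08, adjusted p 0.212 in edgeR) and by -0.02 (standard error 0.19, adjusted p 0.992) without HFB 6 and CTL 14. HFB 6 had 1211 CPM of T cell genes and 2.71 CPM of Gata3, and CTL 14 had 1248 CPM of T cell genes and 6.92 CPM of Gata3. The part of T cells in the Gata3 values was not tested further.

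Lmo4 and Ehf fell with the T cell score. Lmo4 fell by 0.13 on the log2 scale per unit (standard error 0.03, adjusted p 0.00691 in edgeR), and Ehf by 0.49 (standard error 0.12, adjusted p 0.00614) in the fit with no filter. The background was wide, since 1728 of 9361 genes (18.5%) were called downward and 1637 (17.5%) upward, and 1720 of 13526 genes (12.7%) downward with no filter. Both calls ended without HFB 6 and CTL 14, where the slopes were -0.05 (adjusted p 0.954) for Lmo4 and -0.55 (adjusted p 0.666) for Ehf and 34 genes that passed the filter were called. They also ended without CTL 14 alone, where the slopes were -0.11 (adjusted p 0.0840) for Lmo4 and -0.51 (adjusted p 0.0622) for Ehf in edgeR. Among the genes that passed the filter, 1341 were called without CTL 14 and 1909 without HFB 6, against 3365 with all libraries. With the same score 8 of 10 adipocyte and 6 of 8 fibroblast genes were called downward and 5 of 7 endothelium genes upward, and the part of these tissues in the Lmo4 and Ehf values was not tested. The other slopes were 0.09 for Foxa1, 0.12 for Tfap2c, -0.02 for Elf5, -0.11 for Tfap2a and -0.32 for Tbx3 (adjusted p 0.0522 to 0.803 in edgeR). Tbx3 passed without HFB 1 (-0.39, adjusted p 0.0341), HFB 5 (-0.34, adjusted p 0.0398) or CTL 8 (-0.35, adjusted p 0.0418), and Foxa1 without CTL 8 (0.12, adjusted p 0.0261). Over all fits without 1 library the Tbx3 slope ran from -0.49 to -0.20, with adjusted p up to 0.234 in edgeR. Lmo4 did not pass when the epithelial score was taken out of the model (-0.12, adjusted p 0.0662).

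**Figure D3:**
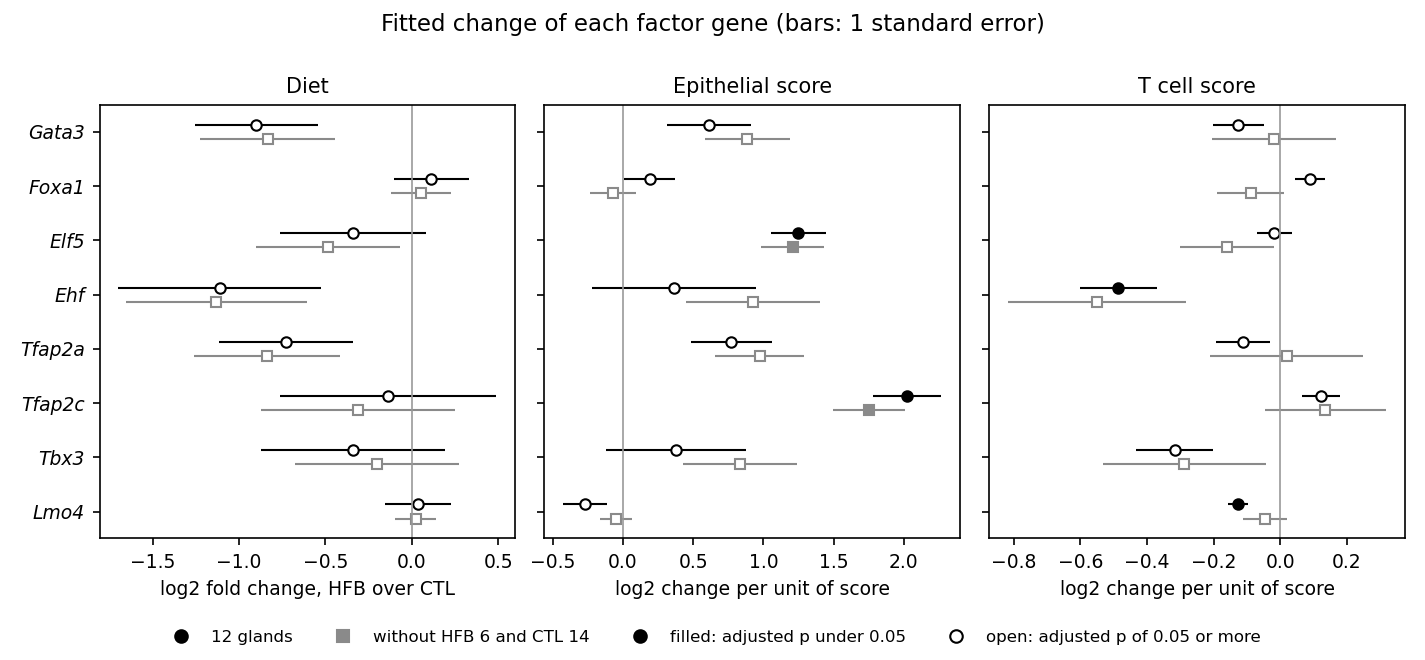
Fitted log2 change of each factor gene between the diets (left), per unit of epithelial score (middle) and per unit of T cell score (right), with bars of 1 standard error, in all 12 glands (circles) and without HFB 6 and CTL 14 (squares). Filled symbols have an adjusted p under 0.05, which Elf5 and Tfap2c reach in both sets for the epithelial score and Ehf and Lmo4 reach only with all glands for the T cell score; Ehf, Tfap2a and Tbx3 come from fits with no filter.

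Among themselves the factor genes varied in pairs. The 5 genes that passed the filter gave 10 pairs, which share library, depth and tissue make-up. Elf5 and Tfap2c went together over the 12 glands (Pearson r = 0.93, permutation p = 1e-05, the smallest that resampling gives, adjusted p = 1e-04, Spearman rho = 0.91, p = 7e-05, adjusted p = 7e-04). Without the 2 glands farthest from the Elf5 median r was 0.93 (permutation p = 2.1e-04), and without HFB 6 and CTL 14 it was also 0.93 (permutation p = 2.9e-04). When diet and the epithelial score were removed from both genes, r was 0.42 (permutation p = 0.17, adjusted p = 0.283).

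Gata3 and Elf5 gave r = 0.71 (permutation p = 0.00979, adjusted p = 0.0355) but rho = 0.45 (permutation p = 0.141, adjusted p = 0.354). HFB 6 was high in Elf5 and low in Gata3, and without HFB 6 and CTL 14 r was 0.91 (permutation p = 3.1e-04, adjusted p = 0.00155) and rho 0.84. Without the 2 glands farthest from the Gata3 median r was 0.67 (permutation p = 0.0347, adjusted p = 0.116), and after diet and the epithelial score were removed it was 0.48 (permutation p = 0.118, adjusted p = 0.235). It did not pass without HFB 1 (r = 0.53), HFB 2 (0.71), HFB 3 (0.69), HFB 4 (0.69), CTL 7 (0.69), CTL 8 (0.71), CTL 9 (0.70), CTL 11 (0.69) or CTL 14 (0.69), and without HFB 6 r was 0.90 (permutation tests). Gata3 and Tfap2c had r = 0.52 (permutation p = 0.0854, adjusted p = 0.165, rho = 0.36, p = 0.257), and 0.80 (permutation p = 0.00882, adjusted p = 0.0294) without HFB 6 and CTL 14. It also passed without HFB 6 alone (r = 0.78, adjusted p = 0.0203, permutation test).

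Lmo4 went the other way from Tfap2c, with r = -0.69 (permutation p = 0.0106, adjusted p = 0.0355) and rho = -0.58 (permutation p = 0.0513, adjusted p = 0.232). Without HFB 6 and CTL 14, the glands highest in Tfap2c and lowest in Lmo4, r was -0.35 (permutation p = 0.305, adjusted p = 0.71). After diet and the epithelial score were removed from both genes, r over the 12 glands was -0.75 (permutation p = 0.00609, adjusted p = 0.0609). It did not pass without HFB 2 (r = -0.67), HFB 3 (-0.66), HFB 6 (-0.59), CTL 8 (-0.66), CTL 9 (-0.72), CTL 11 (-0.69) or CTL 14 (-0.61), nor without the 2 glands farthest from the Tfap2c median (r = -0.73, permutation p = 0.0165, adjusted p = 0.0826). Foxa1 and Lmo4 had r = -0.60 (permutation p = 0.0375, adjusted p = 0.0938, rho = -0.36, p = 0.257), and 0.11 without the pair, and passed without CTL 8 (r = -0.79, adjusted p = 0.0268, permutation test). The remaining 5 pairs had r between -0.49 and 0.33 and adjusted p of 0.165 or more (permutation tests). After diet and the epithelial score were removed, r was 0.57 for Gata3 and Lmo4 (0.04 before) and -0.57 for Gata3 and Foxa1 (-0.32 before). It was -0.07 for Elf5 and Lmo4 (-0.49 before), 0.02 for Foxa1 and Elf5 and 0.35 for Foxa1 and Tfap2c. None of these residual values passed (adjusted p 0.143 to 0.947, permutation tests).

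**Figure D4:**
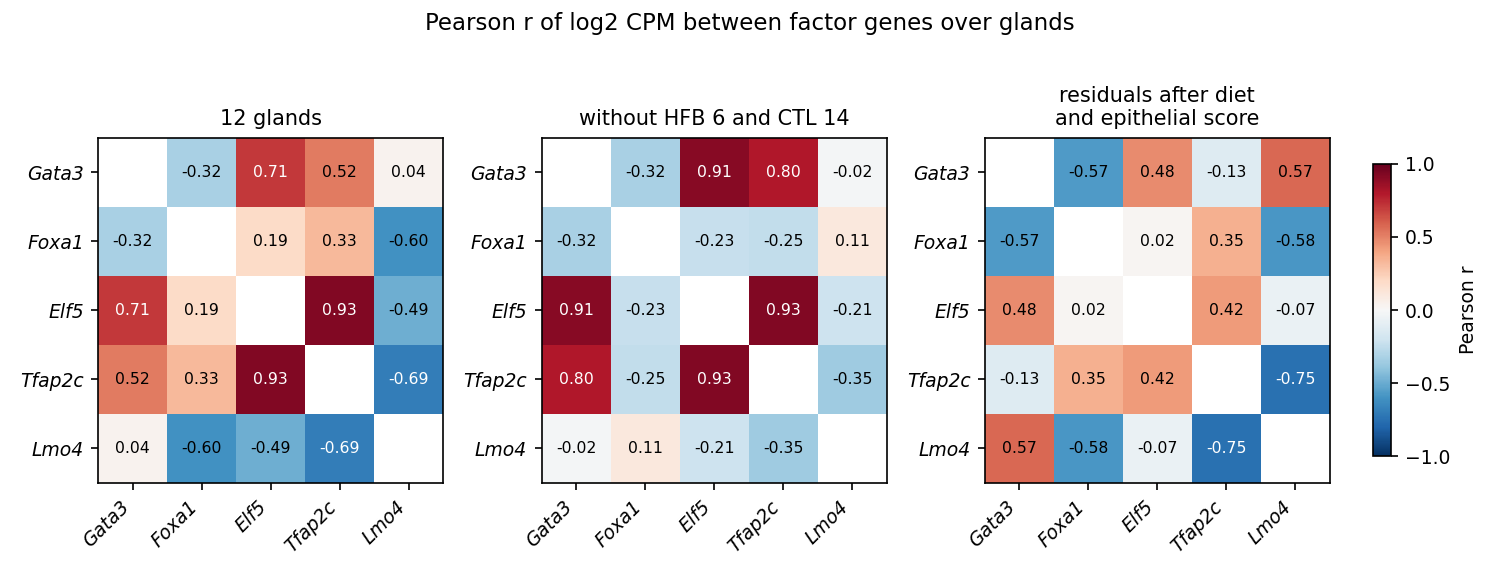
Pearson r of log2 CPM between the factor genes that passed the low-count filter, over 12 glands (left), over 10 glands without HFB 6 and CTL 14 (middle) and between residuals after diet and the epithelial score (right), on a colour scale from -1 to 1. Elf5 and Tfap2c are at 0.93 in the left and middle panels and at 0.42 in the right panel, and Lmo4 and Tfap2c go from -0.69 to -0.35 when the pair of glands is left out.

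Over the 12 glands Gata3 was in a pair with the ETS gene Elf5 (r = 0.71) and Lmo4 in a pair of opposite direction with the AP-2 gene Tfap2c (r = -0.69). Neither pair passed for residuals after diet and the epithelial score (adjusted p 0.235 and 0.0609, permutation tests). Promoter sequences were at hand for only 2 of the 9 genes, Gata3 and Lmo4, and both are shown. They are 300 bases, 250 before and 50 after the annotated start in the RefSeq table of the GRCr8 assembly, at chr17:73553298-73553597 on the plus strand for Gata3 and chr2:235941226-235941525 on the minus strand for Lmo4, and are shown 5′ to 3′ with matches to the AP-2 motif GCCNNNGGC and the ETS motif AGGAAG in capitals, which do not overlap each other.
Gata3: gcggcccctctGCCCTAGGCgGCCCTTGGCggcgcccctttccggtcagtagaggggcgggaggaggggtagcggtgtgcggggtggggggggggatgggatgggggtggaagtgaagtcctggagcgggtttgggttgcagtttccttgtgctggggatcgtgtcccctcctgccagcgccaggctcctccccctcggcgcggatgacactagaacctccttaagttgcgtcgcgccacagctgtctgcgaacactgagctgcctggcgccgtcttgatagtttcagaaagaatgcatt
Lmo4: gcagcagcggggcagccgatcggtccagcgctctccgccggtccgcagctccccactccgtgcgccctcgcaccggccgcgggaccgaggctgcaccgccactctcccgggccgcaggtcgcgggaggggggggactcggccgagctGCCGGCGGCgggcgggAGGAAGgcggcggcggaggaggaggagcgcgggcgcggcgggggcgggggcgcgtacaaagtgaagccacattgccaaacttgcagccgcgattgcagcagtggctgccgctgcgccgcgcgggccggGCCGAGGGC
Both strands were searched. Each promoter had 2 matches to the AP-2 motif, and 15.1% of 33469 promoters of this length hold at least 1. Lmo4 had 1 match to the ETS motif and Gata3 had 0, where 34.5% of promoters hold at least 1. No match was found in either for GATAA (GATA factors, 26.5% of promoters), TGTTTAC (forkhead, 3.78%), GGTGTGA (T-box, 3.83%) or ACAATG (SOX, 13.2%). G and C made up 65.0% of the Gata3 and 78.3% of the Lmo4 sequence, against a median of 51.7% over all promoters, and the AP-2 motif is itself rich in G and C. A match is a stretch of letters and not a measured site.

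The genes whose levels were most like those of each factor gene were named by the 3 highest Pearson r of log2 CPM over the 12 glands among 9381 other genes, as a description. For Gata3 they were Csn1s1, a casein (r = 0.89), Steap4 (0.84) and Tbc1d9 (0.84). For Elf5 they were Ano1 (r = 0.96), Lalba, which encodes the milk protein alpha-lactalbumin (0.95), and Tmc4 (0.94). For Tfap2c they were the keratin Krt19 (r = 0.97), which is 1 of the genes in the epithelial score, Cnn1, a calponin of contractile cells (0.97), and Lcn2 (0.97). Without HFB 6 and CTL 14 the r of these 9 genes lay between 0.82 and 0.97. Lmo4 was closest to Psat1, an enzyme of serine synthesis (r = 0.97), Synj2bp (0.97) and Dynlt3 (0.96), with 0.81, 0.79 and 0.86 without the pair, and Foxa1 to the cadherin Cdh2 (r = 0.89), Dqx1 (0.88) and Cpne7 (0.85), with 0.85, 0.76 and 0.66.

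Genes related to the factor genes were taken as 4 lists, and within each the 4 of highest mean CPM are given by value, an order that also depends on transcript length. Of 24 paralogs, 23 had a row in the table, 2 of them at 0 counts in every library (Foxa2 and Tfap2d), and 11 passed the filter. None was called between the diets, and the median log2 fold change was -0.21, against 0.01 over all genes. With the epithelial score 3 of the 11 were called upward, where 1.14% of all genes were, Sox10 (slope 1.58, standard error 0.15, adjusted p 2.18e-04 in edgeR), Spdef (1.497, standard error 0.24, adjusted p 0.00820) and Lmo1 (1.05, standard error 0.23, adjusted p 0.0499), and none downward. Spdef is an ETS factor of luminal and secretory epithelium and Sox10 a factor of neural crest that mammary progenitor cells also use. Sox10 was at 15.0 ± 11.2 CPM (SD, n = 6) with HFB and 19.4 ± 10.02 CPM (SD, n = 6) with CTL, lowest in HFB 1 (4.95 CPM) and highest in CTL 14 (33.2 CPM). Elf2 was at 49.1 ± 13.0 and 54.2 ± 1.90 CPM, Lmo2 at 48.6 ± 5.33 and 45.5 ± 9.21 CPM and Elf1 at 13.8 ± 10.3 and 14.8 ± 3.79 CPM (SD, n = 6 each). Without HFB 6 and CTL 14 Sox10 and Spdef were called and Lmo1 was not (slope 0.73, adjusted p 0.135). Schwann cells also express Sox10, and the part of nerve in its value was not tested.

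Of 12 cofactors, 11 had a count and 10 passed the filter, none was called between the diets (median -2.21e-04), and 1 was called upward with the epithelial score, where 1.14% of all genes were. This was Cited1, a coactivator without DNA-binding domain that is known in the ductal luminal epithelium, with a slope of 1.69 (standard error 0.20, adjusted p 0.00109 in edgeR) and 1.47 (adjusted p 0.00120) without HFB 6 and CTL 14. It was at 70.0 ± 63.5 CPM (SD, n = 6) with HFB and 63.7 ± 36.6 CPM (SD, n = 6) with CTL, from 16.7 CPM in HFB 3 to 161 CPM in HFB 6. Ldb1, which binds LIM-only proteins such as Lmo4, was at 92.3 ± 51.0 and 93.2 ± 70.3 CPM, Tle3 at 84.8 ± 18.4 and 80.6 ± 17.6 CPM and Cited2 at 61.8 ± 17.1 and 62.7 ± 16.3 CPM (SD, n = 6 each). With the T cell score 3 cofactors were called upward (Ldb1, Tle3 and Cited1) and 3 downward (Ldb2, Cited2 and Rbbp8), where 17.5% and 18.5% of all genes were called, and none without HFB 6 and CTL 14. Ldb1 had the opposite sign to Lmo4, with a slope of 0.30 (standard error 0.03, adjusted p 1.48e-05 in edgeR).

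The list of other epithelial and mammary regulators had 31 genes, 27 of them with a count and 16 past the filter. None was called between the diets (median log2 fold change -0.23), and Id4, an inhibitor of helix-loop-helix factors found in basal cells, was called upward with the epithelial score (slope 0.78, standard error 0.15, adjusted p 0.0295 in edgeR), 1 of 16 where 1.14% of all genes were. Without HFB 6 and CTL 14 Id4 (slope 0.85, adjusted p 0.0481) and Grhl2 (slope 1.40, adjusted p 0.0456) were called. The most abundant by mean CPM were Xbp1, at 231 ± 52.4 with HFB and 210 ± 33.9 with CTL, Cebpb, at 120 ± 44.0 and 81.4 ± 22.0, Klf4, at 93.9 ± 15.2 and 91.1 ± 29.8, and Stat5a, at 78.0 ± 7.16 and 77.1 ± 6.56 CPM (SD, n = 6 each). Like Foxa1 and Lmo4, these had slopes on the epithelial score that did not pass, between -0.32 and 0.08 (adjusted p 0.228 to 0.926 in edgeR). With the T cell score Klf4, Nfib and Xbp1 were called downward, 3 of 16 where 18.5% of all genes were, and none upward, and none in either direction without HFB 6 and CTL 14. Esr1, the estrogen receptor, had 88 counts over the 12 libraries and Pgr, the progesterone receptor, 12, and neither passed the filter.

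Among 16 targets and luminal differentiation genes, 15 had a row in the table, 2 of them at 0 counts in every library (Csn2 and Csn1s2a), and 5 passed the filter, none was called between the diets (median -0.38), and Lalba was called upward with the epithelial score (slope 1.55, standard error 0.15, adjusted p 3.34e-04 in edgeR), 1 of 5 where 1.14% of all genes were. Lalba was at 95.5 ± 65.3 CPM (SD, n = 6) with HFB and 124 ± 63.8 CPM (SD, n = 6) with CTL, and lowest in HFB 1 at 18.2 CPM, the gland lowest in Elf5 and Tfap2c as well. Csn1s1, the gene closest to Gata3, was at 52.9 ± 20.3 and 125 ± 67.3 CPM (SD, n = 6 each), with a log2 fold change of -1.24 (standard error 0.38, unadjusted p 0.00570, adjusted p 0.999 in edgeR). Csn3 was at 13.7 ± 14.9 and 13.9 ± 11.6 CPM and Kit, the receptor of luminal progenitors, at 6.33 ± 6.10 and 11.8 ± 6.69 CPM (SD, n = 6 each). Without HFB 6 and CTL 14 both Lalba (slope 1.54, adjusted p 3.81e-04) and Csn3 (slope 2.45, adjusted p 0.00203) were called in edgeR. Csn3 was called downward with the T cell score over all glands, as were 18.5% of all genes, and not without the pair. Wap had 35 counts over the 12 libraries.

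**Figure D5:**
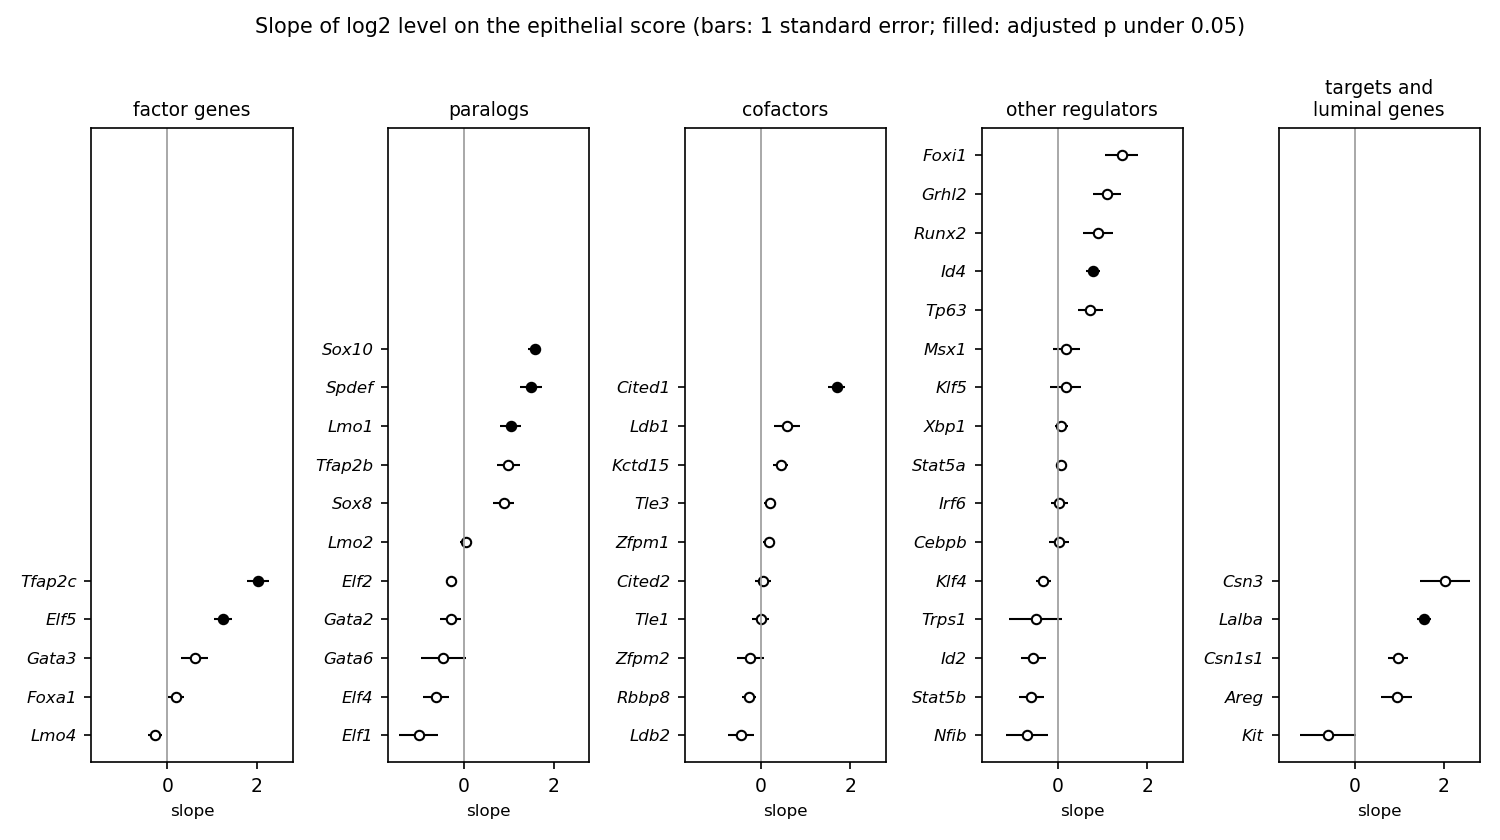
Slope of the log2 level on the epithelial score (x axis, log2 change per unit of score, with bars of 1 standard error) for the factor genes and the genes of the 4 related lists that passed the low-count filter, in 12 glands with diet in the model. Filled points have an adjusted p under 0.05 and are Tfap2c, Elf5, Sox10, Spdef, Lmo1, Cited1, Id4 and Lalba, with slopes from 0.78 to 2.02.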

How the data were processed

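The authors deposited raw counts of reads per gene in 12 libraries, without normalization. The submitters' processing notes name CASAVA 1.8, bcl2fastq, TopHat, DESeq and the build rn4, and the counter, annotation and use of strand are not given in the sources used here, so reads of overlapping genes could not be told apart. Symbols were matched for 16351 of 16511 genes through the RefSeq table of GRCr8, which also gave the promoters. edgeR 4.0.16 in R 4.3.3 (filterByExpr, TMM, quasi-likelihood test, Benjamini-Hochberg over all genes that passed, threshold 0.05) tested 9382 genes for diet and for slopes on scores, whose own genes were left out of the counts. Tfap2a, Ehf and Tbx3 did not pass the filter and were read from fits with no filter, chosen after seeing the data. Scores are mean log2 CPM with a prior count of 2. Correlations used 100000 permutations in Python 3.11.15 with scipy 1.17.1. The alternatives were DESeq2 1.42.0, limma 3.58.1, other scalings, filters, scores and libraries. After the data were seen, the T cell fit with no filter, the test of a diet difference in slope and, for pairs and marker scores, leaving out HFB 6 and CTL 14 were added. The tests were tried on simulated data. Libraries come from separate litters, and no pair of 1 diet agreed within sampling noise (chi-square per degree of freedom at least 7.10). The factor genes and the lists were chosen with earlier results of these data known. The genes named are the factor genes, the 4 of highest mean CPM in each related list and the 3 most alike, and those called were added after their values were seen.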

Additional observations from a re-analysis of the deposited data

Results flagged for a closer look

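The gap between the highest or lowest library and the next, relative to the range of the 6 libraries of its diet, was examined in 44 groups of values (CPM of the factor genes, marker scores and total counts). It passed Dixon's critical value for 6 libraries in 9 cases, where chance gives about 1 in 20 groups, or 2.2. Of the factor genes this was so for Tbx3 alone, at 7.81 CPM in HFB 4 against 2.73 CPM in the next HFB gland. The adipocyte score was 9.86 in HFB 6, next to 11.04, and 9.72 in CTL 14, next to 11.11. CTL 14 also had a B cell score of 5.67, next to 1.78, a T cell score of 6.07, next to 2.52, and a fibroblast score of 9.62, next to 10.52. The red blood cell score of CTL 9 was 12.31, next to 10.34. The total count was 2320267 in HFB 1, next to 2629159, and 2944680 in CTL 7, next to 2570080. The slopes on the epithelial score were compared between the diets, and no factor gene differed by an adjusted p under 0.05.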

How the results depend on the processing

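No gene was called between the diets in edgeR, in any of the 9 other alternatives or without any library. The number with an unadjusted p under 0.05 was 604 with limma-voom, 856 with the epithelial score as a covariate, 1304 with the T cell score as well and 427 without HFB 6 and CTL 14, and 125 to 582 when 1 library was left out. With the epithelial score, 680 genes were called by DESeq2, 57 by limma-voom, 60 with a prior count of 0.5, 1168 with the luminal keratins and 1739 with the basal list as the score, 2 in the HFB and 0 in the CTL libraries alone, 13 without the 2 farthest libraries and 61 without HFB 6 and CTL 14, and 46 to 1393 without 1 library. With the T cell score it was 1479 without the epithelial score, 34 without HFB 6 and CTL 14, and 1341 to 3454 without 1 library. Pairs that passed numbered 0 for residuals, 1 without the 2 farthest libraries, and 1 to 3 without 1 library, against 3.

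Between the diets limma-voom gave -0.84 for Elf5, -1.02 for Tfap2c and -0.59 for Tbx3. Without 1 library Elf5 ran from -0.59 to -0.14 and Tbx3 from -1.03 to -0.12.

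These values changed direction. Between the diets, Elf5 went to 0.00974, Tfap2c to 0.35 and Lmo4 to -0.0857 with the epithelial score as a covariate, and to 0.0269, 0.28 and -0.0163 with the T cell score as well. Without 1 library Foxa1 ran from -0.0429 to 0.21, Tfap2c from -0.68 to 0.23 and Lmo4 from -0.0748 to 0.14. On the epithelial score, Foxa1 had -0.0870 with limma-voom and -0.0700 without HFB 6 and CTL 14, Ehf -0.0675 and Tbx3 -0.0746 with the basal list, and Ehf -0.28 without the 2 farthest libraries. Without 1 library Ehf ran from -0.0162 to 0.73 and Tbx3 from -0.0866 to 0.68. On the T cell score, Foxa1 had -0.0893 and Tfap2a 0.0187 without HFB 6 and CTL 14, and Elf5 0.0175 without the epithelial score and -0.0570 to 0.0197 without 1 library. The r of Gata3 and Tfap2c was -0.13 for residuals. Without the 2 farthest libraries and without HFB 6 and CTL 14, r was -0.0578 and -0.0196 for Gata3 and Lmo4, -0.23 and -0.23 for Foxa1 and Elf5, -0.25 and -0.25 for Foxa1 and Tfap2c, and 0.11 and 0.11 for Foxa1 and Lmo4. Without 1 library the first ran from -0.18 to 0.25 and the second from -0.0059 to 0.34. The cause was not tested.

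No paired analysis was possible because no number occurs in both diets. The depth leaves Ehf, Tbx3, Tfap2a and Gata3 at 1 to 32 counts a library, Tfap2c at 3 to 50 and Elf5 at 7 to 58. At such counts, counting error adds to the spread by a share that was not measured. Of the factor genes, only Foxa1 and Lmo4 had 10 or more counts in every library, and Gata3, Elf5, Tfap2c and the others were not tested at that filter. With 6 glands a diet, a p that misses the threshold does not show that levels were alike.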
